A study of Mus musculus with 35 samples.

Results

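The genes followed here in striatal RNA are 10 that mark astrocytes, chosen by name: *Slc1a3*, *Slc1a2*, *Glul*, *Aldoc*, *Aldh1l1*, *Aqp4*, *Gja1*, *S100b*, *Sox9* and *Gfap*. They are part of the 22099 genes listed, and all 10 were among the 17639 genes with enough counts to be tested. The first 9 serve functions of resting astrocytes and are called homeostatic here, and *Gfap* is taken as the reactive member. This grouping was set by name and was not tested in these data. The study asked whether silencing huntingtin outside the brain alters striatal signs of Huntington's disease in mice. RNA was sequenced from the hemistriatum of 35 female C57BL6/J mice aged 299 to 304 days, with 1 library per mouse. HttQ111/+ mice, which carry 1 Htt allele with an expanded CAG tract knocked in, were compared with wild-type Htt+/+ littermates. Mice of each genotype had received weekly intraperitoneal injections of saline, an antisense oligonucleotide (ASO) against Htt (Htt ASO) or a control ASO not directed at Htt (control ASO), from 2 to 10 months of age. A dose of ASO was 50 mg/kg, and saline was dosed by volume, 4 µL/g. The Htt+/+ groups held 6 saline, 5 control ASO and 6 Htt ASO mice, and the HttQ111/+ groups held 6 mice each. The 17 Htt+/+ and 18 HttQ111/+ mice carried no other allele in the labels, and the knock-in is present in every cell, so neurons and glia alike carried it.

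Astrocytes clear glutamate from the synapse with the transporters GLAST (*Slc1a3*) and GLT-1 (*Slc1a2*) and turn it into glutamine with glutamine synthetase (*Glul*). They are joined by gap junctions built from connexin 43 (*Gja1*) and hold the water channel aquaporin-4 (*Aqp4*) in the endfeet that surround vessels. When tissue is injured they become reactive, a state in which the intermediate filament protein *Gfap* rises and homeostatic functions may decline. The libraries came from whole tissue, so fewer cells of a type and less RNA per cell cannot be told apart in any value below.

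Depth was even, at 32200158 to 38641924 counts per mouse, and levels are given as CPM, that is, scaled to a common library size, by the TMM method. All 10 genes were read in every mouse, with a lowest count of 554 for *Sox9* and of 53271 for *Glul*. Per kilobase of the longest coding transcript, *Glul* had the highest level (646 CPM per kb), followed by *Aldoc* (238), *Slc1a3* (132) and *Gja1* (55.9), and the ranges of these 4 over the 35 mice did not overlap. *S100b* followed with 27.7 CPM per kb, *Gfap* with 20.9, *Aldh1l1* with 13.4 and *Slc1a2* with 11.5, a row whose wide spread is described below. Among these 4 neighbours the ranges overlapped: *S100b* ran from 22.1 to 32.8 CPM per kb and *Gfap* from 14.7 to 28.1, while *Slc1a2* ran from 3.55 to 25.1. *Aqp4* (5.97 CPM per kb) and *Sox9* (5.05) were lowest, and their ranges overlapped as well. Within groups, *Slc1a3* varied least, with a coefficient of variation of 3.43%, and the other homeostatic genes apart from *Slc1a2* stayed at 12.0% or below. *Gfap* varied by 16.3% and *Slc1a2* by 52.0%.

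**Figure D1:**
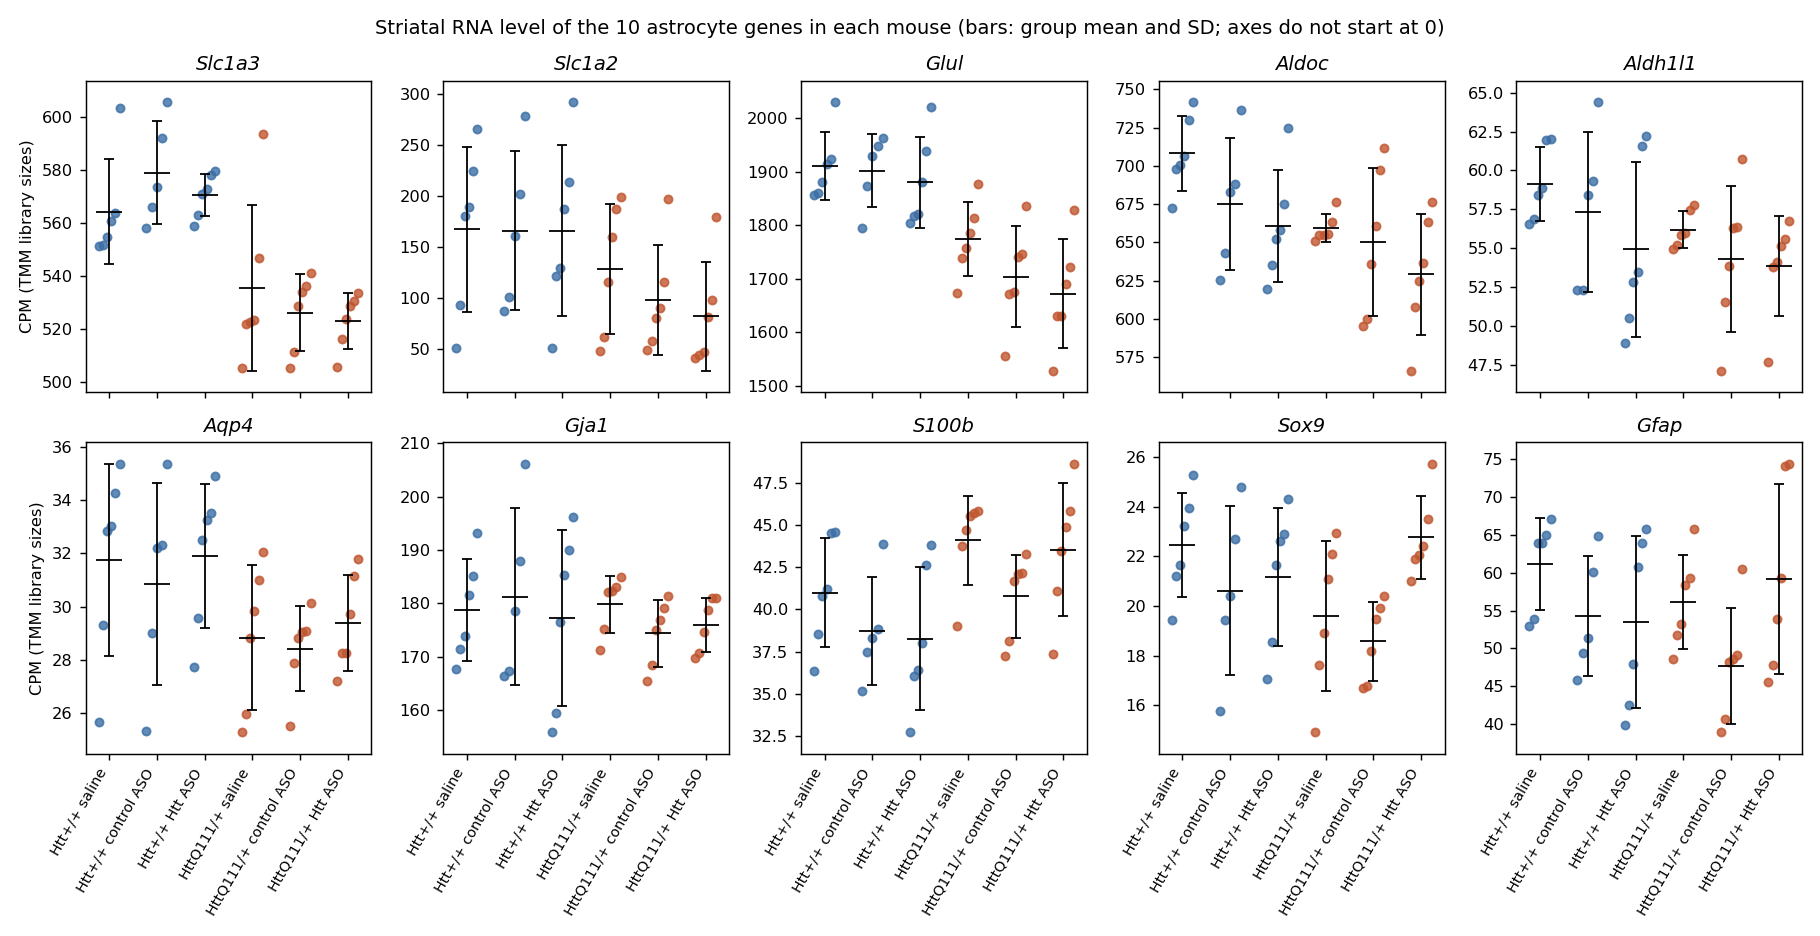
CPM of each gene (vertical axis, own scale per panel, not starting at 0) in each mouse (points), by genotype and treatment, with the group mean and SD as bars. In *Slc1a3* and *Glul* most HttQ111/+ mice (orange) lie below the Htt+/+ mice (blue), in *S100b* they lie higher, and in *Slc1a2* every group is spread widely.

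Promoter windows are shown for the 2 genes whose genotype difference was called under every alternative tried, *Slc1a3* and *Glul*, and for the reactive gene *Gfap*. They are RefSeq windows on GRCm38.p6, from 250 bases before to 50 bases after an annotated start, at chr15:8710758-8711057 (minus strand), chr1:153899679-153899978 (plus strand) and chr11:102897151-102897450 (minus strand). Capitals mark matches, on either strand, to TTCNNNGAA, the core that STAT factors bind.
Slc1a3: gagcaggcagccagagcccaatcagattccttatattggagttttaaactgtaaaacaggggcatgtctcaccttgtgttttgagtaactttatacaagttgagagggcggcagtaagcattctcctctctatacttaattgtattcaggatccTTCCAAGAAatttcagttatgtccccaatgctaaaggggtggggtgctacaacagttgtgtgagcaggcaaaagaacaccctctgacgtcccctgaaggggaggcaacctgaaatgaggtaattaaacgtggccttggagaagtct
Glul: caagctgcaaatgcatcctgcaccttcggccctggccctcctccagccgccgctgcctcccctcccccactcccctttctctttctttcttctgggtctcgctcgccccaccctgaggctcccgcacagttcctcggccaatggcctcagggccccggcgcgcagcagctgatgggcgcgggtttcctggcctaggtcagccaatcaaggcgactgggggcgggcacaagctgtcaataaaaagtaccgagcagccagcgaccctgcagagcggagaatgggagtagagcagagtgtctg
Gfap: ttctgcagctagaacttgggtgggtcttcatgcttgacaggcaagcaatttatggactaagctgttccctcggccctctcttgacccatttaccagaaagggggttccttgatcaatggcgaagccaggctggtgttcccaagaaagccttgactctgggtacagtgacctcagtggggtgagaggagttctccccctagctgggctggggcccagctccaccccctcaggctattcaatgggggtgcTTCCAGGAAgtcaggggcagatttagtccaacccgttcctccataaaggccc
The match in *Slc1a3* began 96 bases before the start and that in *Gfap* 2 bases before it, and the *Glul* window held none. Among the windows not shown, that of *Aldoc* at chr11:78323948-78324247 held 2 matches. The other *Aldoc* window and those of *Aldh1l1*, *Gja1*, *S100b* and *Slc1a2* held none. Of the 32851 windows in the table, 8.3% held such a match. The window shown for *Gfap* belongs to a start inside the gene as GENCODE draws it. So do the windows of *Aldh1l1* and *Slc1a2* and the *Aldoc* window with 2 matches. Neither the palindromic motif of NFI factors (in 0.0365% of all windows) nor the SOX motif (ACAATG, in 12.6%) occurred in any window of the 10 genes that the table holds. *Aqp4* and *Sox9* had no window there.

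Genotype changed 6 of the 10 genes. *Slc1a3*, *Glul*, *Aldoc*, *Slc1a2* and *Aqp4* were lower in HttQ111/+ than in Htt+/+ mice, *S100b* was higher, and *Aldh1l1*, *Gja1*, *Sox9* and *Gfap* did not pass the test. A gene is said to be called when its p-value from limma after voom, adjusted over all tested genes, is under 0.05. By that rule 39.8% of all tested genes were called between genotypes, 21.8% higher and 18.0% lower in HttQ111/+ mice, so that 6 of 10 stands beside a background in which calls were common. Of the homeostatic genes 5 of 9 were called lower and 1 higher. The median log2 fold change of the 9 was −0.077, beside 0.0037 over all tested genes. Apart from *Slc1a2* no gene differed by as much as 10%. The ranges of the 2 genotypes overlapped in all 10 genes, and over all tested genes they did not overlap in 2.21%.

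*Glul* (chr1:153899944-153909723, GRCm38, here and below for gene positions) encodes the enzyme that makes glutamine from glutamate and ammonia. In Htt+/+ mice its level had a minimum of 1856 CPM, a median of 1896 and a maximum of 2029 on saline, and of 1805, 1850 and 2021 on Htt ASO. The 5 Htt+/+ mice on control ASO had 1795, 1872, 1929, 1948 and 1962 CPM. In HttQ111/+ mice the lowest, median and highest levels were 1672, 1771 and 1877 CPM with saline, 1554, 1707 and 1836 CPM with control ASO, and 1528, 1660 and 1829 CPM with Htt ASO. All 18 HttQ111/+ mice lay below the Htt+/+ median, and 14 of them lay below the lowest Htt+/+ mouse. The level fell by 9.62% (log2 fold change −0.15 ± 0.022 (SE), adjusted p = 2.44e-06), and in 5 of the 5 sequencing lanes with mice of both genotypes it was lower.

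*Slc1a3* (chr15:8634124-8710764) encodes the glutamate transporter GLAST. In Htt+/+ mice it had a minimum of 551 CPM, a median of 558 and a maximum of 603 on saline, and of 559, 572 and 579 on Htt ASO. The 5 Htt+/+ mice on control ASO had 558, 566, 573, 592 and 605 CPM. In HttQ111/+ mice the lowest, median and highest levels were 506, 523 and 593 CPM with saline, 505, 531 and 541 CPM with control ASO, and 506, 526 and 534 CPM with Htt ASO. The 17 lowest HttQ111/+ mice all lay below the lowest Htt+/+ mouse, and 1 HttQ111/+ mouse on saline, at 593 CPM, lay among the highest Htt+/+ mice. The level fell by 7.55% (log2 fold change −0.11 ± 0.017 (SE), adjusted p = 1.85e-06), with the same direction in 5 of 5 lanes.

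*Slc1a2* (chr2:102658659-102790784) encodes GLT-1, which carries most of the glutamate uptake of the forebrain. Its level ran from 51.3 to 265 CPM (median 185) in Htt+/+ mice on saline, and from 51.0 to 291 (median 159) on Htt ASO. The 5 Htt+/+ mice on control ASO had 87.8, 101, 161, 202 and 278 CPM. In HttQ111/+ mice it ran from 48.4 to 199 CPM (median 137) with saline, from 49.5 to 197 (median 85.3) with control ASO and from 41.1 to 180 (median 64.6) with Htt ASO. Every group thus held both low and high mice, and the highest of the 35 mice had 7.08 times the level of the lowest. The level fell by 39.7% (log2 fold change −0.73, standard error 0.26, 95% confidence interval −1.26 to −0.20, adjusted p = 0.0237). Lane by lane, the log2 difference lay between −1.53 and −0.11 (5 lanes).

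The wide spread of *Slc1a2* was shared with other rows of the table. Among the 6048 tested genes with a mean log2 CPM of at least 5, the SD within groups had a median of 0.070 on the log2 scale, and that of *Slc1a2* was 0.82. After the group means were removed, 153 other rows had a Pearson r of 0.9 or more with it over the 35 mice, led by *Kcna2*, a potassium channel gene, and *Phc3*, a Polycomb gene (r = 0.99 each). The 131 of them with a known transcript length had a median length of 10233 bases, against 3509 over all tested genes. A long-transcript level was therefore taken for each mouse, as the mean log2 CPM of the 1478 genes of 7010 bases or more, the 10 genes and Htt left out, minus that of 13300 shorter genes. With the group means removed, *Slc1a2* had Pearson r = 0.91 and Spearman rho = 0.90 with this level over the 35 mice. These are descriptions without a test, since the level was defined after the correlated rows were seen to be long, and it still holds long rows of that kind. Without the 2 mice farthest from the median r was 0.88 over 33 mice, and within the 5 lanes of at least 6 mice it lay between 0.73 and 0.99. The long-transcript level was 0.90 ± 0.096 (SD, n = 17) in Htt+/+ and 0.84 ± 0.089 (SD, n = 18) in HttQ111/+ mice (difference −0.062). This difference is likewise a description without a test, and lane 7 held HttQ111/+ mice only, so lane and genotype are not fully apart in it. With this level as a covariate the genotype difference of *Slc1a2* was −0.24 on the log2 scale (adjusted p = 0.0972) and was not called. Because the level was defined after rows that follow *Slc1a2* were seen to be long, this smaller difference is no independent test of the row. Whether the row measures the level of *Slc1a2* alone was not tested, which limits both its genotype difference and its place in the order of levels.

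A pair of rows shows the same pattern within 1 gene name. The table lists neurobeachin, a neuronal trafficking protein, under both *Nbea* and nbea, spelled in lower case. After the group means were removed, *Slc1a2* had r = 0.98 with the lower-case row and r = −0.95 with the other. The coefficient of variation was 45.6% for the lower-case row, 14.3% for the other and 4.12% for their sum. The Htt transcript, listed as *Hdh*, had r = 0.91 with *Slc1a2*. The other 9 genes followed the long-transcript level less, with r between −0.50 (*Sox9*) and 0.41 (*Aqp4*).

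**Figure D2:**
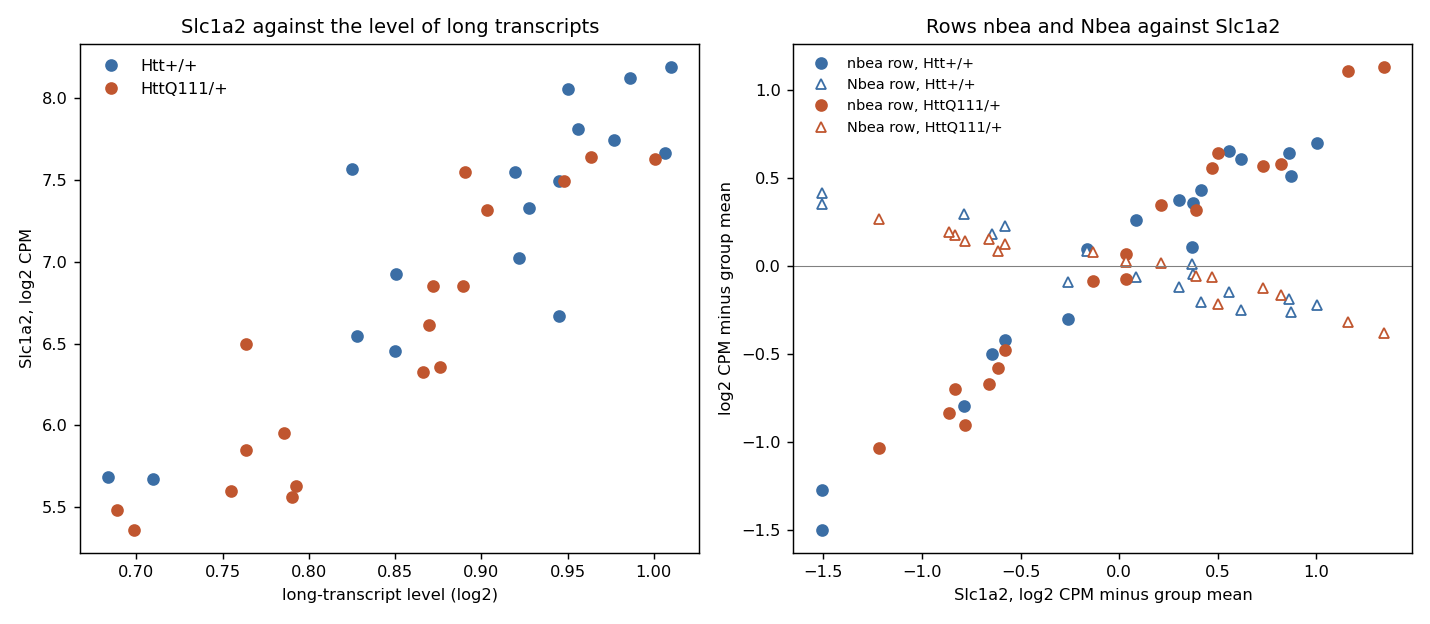
Left, log2 CPM of *Slc1a2* (vertical axis) against the long-transcript level of each mouse (horizontal axis, log2). Right, log2 CPM of the rows nbea and *Nbea* against *Slc1a2*, each with group means removed; points are mice, coloured by genotype. *Slc1a2* and nbea rise together (r = 0.98) while *Nbea* falls (r = −0.95).

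*Aldoc* (chr11:78322968-78327781), the aldolase of brain glycolysis, was 682 ± 39.0 CPM (SD, n = 17) in Htt+/+ and 646 ± 36.8 (SD, n = 18) in HttQ111/+ mice. Of the HttQ111/+ mice 16 of 18 lay below the Htt+/+ median of 683 CPM, and the level fell by 5.16% (log2 fold change −0.077, standard error 0.026, adjusted p = 0.0179). *Aldh1l1* (chr6:90486427-90600203), which encodes an enzyme of folate metabolism and marks astrocytes broadly, was 57.1 ± 4.65 CPM and 54.8 ± 3.30 (SD; n = 17 and 18). Its log2 difference of −0.058 had a 95% confidence interval from −0.13 to 0.011 and was not called (adjusted p = 0.177).

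*Aqp4* (chr18:15389496-15410982) was 31.5 ± 3.19 CPM (SD, n = 17) in Htt+/+ and 28.9 ± 2.01 (SD, n = 18) in HttQ111/+ mice. All 18 HttQ111/+ mice lay below the Htt+/+ median of 32.5 CPM, while the lowest Htt+/+ mice, down to 25.4 CPM, reached the low end of the HttQ111/+ range. The level fell by 7.95% (log2 fold change −0.12, standard error 0.044, adjusted p = 0.0289). Without the Htt+/+ control ASO mouse with the highest level, 35.4 CPM, the difference was −0.10 and no longer called (adjusted p = 0.0608). *Gja1* (chr10:56377330-56402513) was 179 ± 13.6 CPM in Htt+/+ and 177 ± 5.73 in HttQ111/+ mice (SD; n = 17 and 18). Its log2 difference was −0.016 (95% confidence interval −0.074 to 0.042, adjusted p = 0.698), with 9 HttQ111/+ mice below the Htt+/+ median and 9 above it. Scaled by library totals instead, it was 0.023, on the other side of 0.

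*S100b* (chr10:76253853-76261159), a calcium-binding protein of astrocytes that oligodendrocytes also make, went the other way. In Htt+/+ mice it ran from 36.4 to 44.6 CPM (median 41.0) on saline and from 32.7 to 43.8 (median 37.2) on Htt ASO, and the 5 mice on control ASO had 35.2, 37.5, 38.3, 38.9 and 43.9 CPM. In HttQ111/+ mice it ran from 39.0 to 45.8 CPM (median 45.1) with saline, from 37.3 to 43.3 (median 41.9) with control ASO and from 37.4 to 48.6 (median 44.2) with Htt ASO. Of the HttQ111/+ mice 15 of 18 lay above the Htt+/+ median, and 7 lay above every Htt+/+ mouse. The level with the knock-in was 109% of the wild-type level (log2 fold change 0.12 ± 0.039 (SE), adjusted p = 0.0101). It was higher in 5 of 5 lanes, by 0.038 to 0.090 on the log2 scale, less than over all mice. With lane as a covariate in the fit, the log2 fold change was 0.068 (adjusted p = 0.0430).

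*Sox9* (chr11:112782224-112787760), a transcription factor of astrocytes, was 21.5 ± 2.71 CPM in Htt+/+ and 20.3 ± 2.77 in HttQ111/+ mice (SD; n = 17 and 18). Its log2 difference of −0.076 was not called (95% confidence interval −0.19 to 0.041, adjusted p = 0.311). *Gfap* (chr11:102887336-102900912), the reactive member, ran from 52.9 to 67.2 CPM (median 63.9) in Htt+/+ mice on saline and from 39.9 to 65.8 (median 54.4) on Htt ASO. The 5 Htt+/+ mice on control ASO had 45.7, 49.3, 51.3, 60.1 and 64.8 CPM. In HttQ111/+ mice it ran from 48.6 to 65.8 CPM (median 55.8) with saline, from 38.9 to 60.5 (median 48.4) with control ASO and from 45.6 to 74.4 (median 56.6) with Htt ASO. No HttQ111/+ group stood apart from its Htt+/+ group, and the 2 highest mice of all, at 74.1 and 74.4 CPM, were HttQ111/+ mice on Htt ASO. The genotype difference of *Gfap* was −0.054 on the log2 scale (standard error 0.075, 95% confidence interval −0.21 to 0.099, adjusted p = 0.608), an interval that spans a fall of 13.4% and a rise of 7.10%.

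Within single treatments fewer of the 10 genes passed. On saline only *Glul* was called (log2 fold change −0.11, adjusted p = 0.0474), against 17.4% of all tested genes. This call was lost in 18 of the 35 fits that left out 1 mouse. On control ASO *Slc1a3* (−0.14, adjusted p = 0.00144) and *Glul* (−0.16, adjusted p = 0.00452) were called, against 18.5% of all tested genes. On Htt ASO *Slc1a3* (−0.13, adjusted p = 0.00173), *Glul* (−0.17, adjusted p = 0.00115) and *S100b* (0.19, adjusted p = 0.0345) were called, against 21.2%. The 5 genes called lower over all mice had a log2 difference below 0 in all 3 treatments, and *S100b* had one above 0 in all 3. The difference over all mice is the mean of these 3, so the shared sign is no separate support for the calls.

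**Figure D3:**
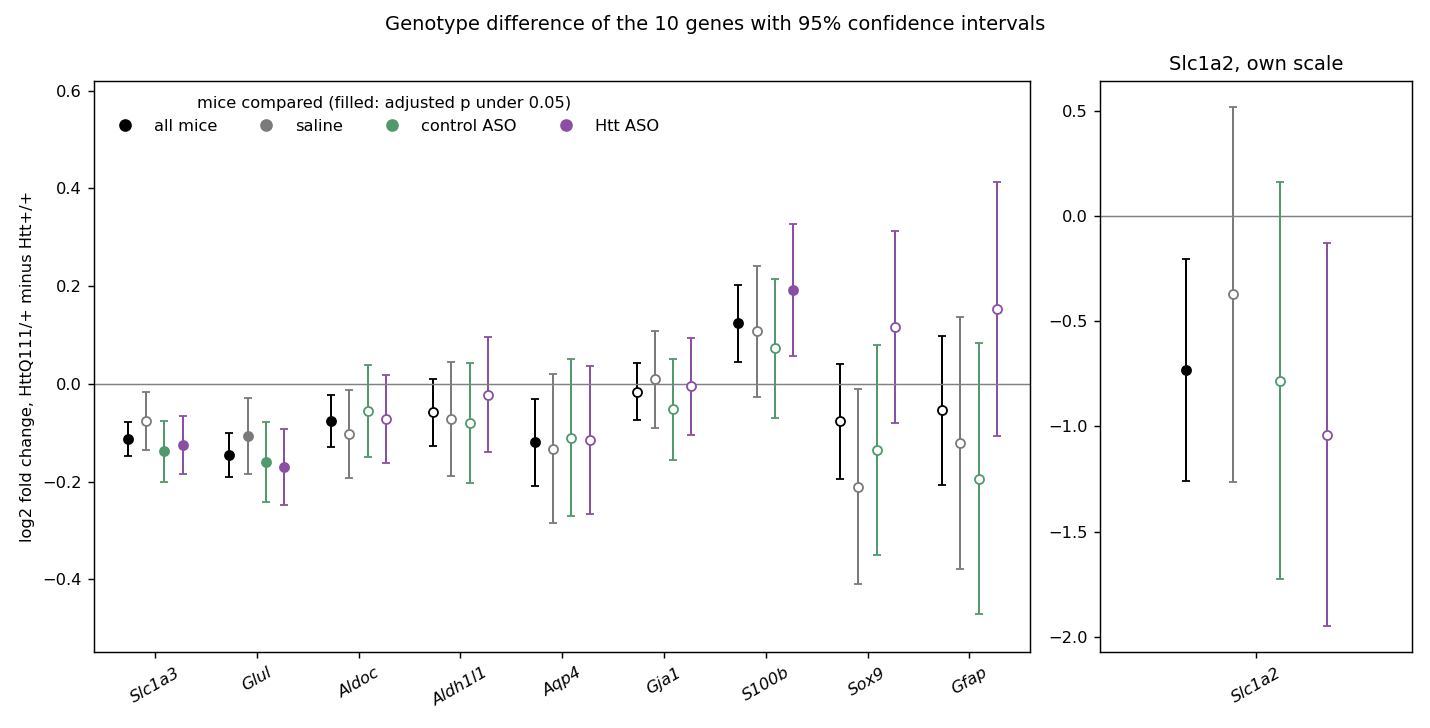
Log2 fold change of HttQ111/+ against Htt+/+ mice (vertical axis) for each gene, over all mice and within each treatment, with 95% confidence intervals; filled points have an adjusted p under 0.05. The points of *Slc1a3* and *Glul* lie below 0 and those of *S100b* above it in every treatment. The intervals of *Gfap* cover 0 throughout, and those of *S100b* cover it on saline and on control ASO.

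Some of the 6 calls were lost with fewer mice or another scaling, at differences of the same sign. Without the 6 HttQ111/+ mice of lane 7, which held that genotype only, 3 genes were called (*Slc1a3*, *Glul* and *Aldoc*). The log2 fold changes of the other 3 were then −0.73 for *Slc1a2* (adjusted p = 0.0651), −0.11 for *Aqp4* (adjusted p = 0.122) and 0.10 for *S100b* (adjusted p = 0.0977), close to those over all mice. When library totals replaced TMM 4 genes were called (*Slc1a2*, *Slc1a3*, *S100b* and *Glul*), and the values were −0.080 for *Aqp4* (adjusted p = 0.148) and −0.038 for *Aldoc* (adjusted p = 0.242). Library totals also raised the share of higher calls among all genes called from 54.7% to 72.1%.

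The lists of astrocyte genes beyond the 10 were read in the same fit, in which 18.0% of all tested genes were called lower and 21.8% higher. Of 28 further homeostatic genes, 14 were lower and 1 was higher in HttQ111/+ mice, with a median log2 fold change of −0.081. *Slc4a4*, a sodium bicarbonate cotransporter, fell from 367 ± 19.5 to 307 ± 16.4 CPM (log2 fold change −0.25, adjusted p = 9.14e-11), and *Grm3*, a metabotropic glutamate receptor, from 79.6 ± 3.95 to 67.1 ± 3.92 (−0.25, adjusted p = 3.25e-09; SD, n = 17 and 18). *Itpr2*, the calcium release channel of astrocyte stores, also fell (−0.27, adjusted p = 0.000695), and *Fabp7*, a fatty acid binding protein of immature glia, rose (0.22, adjusted p = 0.00196). Without the mice of lane 7, 9 of the 28 were called lower, and with library totals 7 were. Among 10 transcription factors, *Id4* (−0.37, adjusted p = 4.29e-12) and *Rfx4* (−0.12, adjusted p = 0.000293) fell, *Stat3* rose by 0.041 (adjusted p = 0.0184), and the other 7 were not called. Of 10 further genes of glutamate and glutamine handling, the neuronal transporter gene *Slc1a1* fell (−0.095, adjusted p = 5.69e-05) and *Slc1a6*, at 2.62 CPM, rose (0.47, adjusted p = 1.14e-05).

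Reactive genes were called in both directions in HttQ111/+ mice, and counts in lists this short are not read as a result about reactive astrocytes. Of 11 tested genes of the pan-reactive list, 2 were higher, 2 lower and 7 not called, with a median of −0.020, beside the 21.8% of all tested genes called higher and 18.0% called lower. *Serpina3n*, a secreted protease inhibitor, rose from 6.04 ± 0.830 to 6.97 ± 1.09 CPM (log2 fold change 0.20, adjusted p = 0.0186; SD, n = 17 and 18), and *Hspb1*, a small heat shock protein, rose by 0.19 (adjusted p = 0.0489). The count of 2 higher held in 4 of 11 alternatives and in 11 of 35 fits without 1 mouse, and was 1 in the others. *Cp*, ceruloplasmin, fell (−0.17, adjusted p = 0.00280), and so did *Steap4*, at 0.368 CPM (−0.48, adjusted p = 0.0228). *Vim*, the intermediate filament partner of *Gfap*, was 41.6 ± 5.51 and 41.0 ± 5.45 CPM (−0.020, adjusted p = 0.788), and *Cd44* differed by 0.016 (adjusted p = 0.904). Of 11 genes that earlier work tied to an inflammatory type of reaction (A1), 4 were lower and none was higher, with a median of −0.19: *Fbln5* (−0.56, adjusted p = 5.52e-12), *Amigo2* (−0.32, adjusted p = 1.35e-07), *Srgn* (−0.26, adjusted p = 8.44e-05) and *Ggta1* (−0.19, adjusted p = 0.000422). Of 9 genes tied to the type seen after ischaemia (A2), *S100a10* fell (−0.72, adjusted p = 4.65e-13), *Ptgs2*, a cyclooxygenase that neurons also make, rose (0.58, adjusted p = 2.89e-06) and 7 were not called. None of these lists was specific to astrocytes in a bulk sample, since vessels, microglia and neurons express several of their genes.

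Some markers of other cell types also differed by genotype in the same samples, where 18.0% of all tested genes were called lower and 21.8% higher. Counts of 1 or 2 genes in lists this short are not read as a result about the cell type. Of 7 genes of medium spiny neurons, the projection neurons of the striatum, 6 were lower and *Tac1* was higher, and their summed level ran from 5907 to 6930 CPM in Htt+/+ and from 3777 to 4581 in HttQ111/+ mice. Of 6 genes of endothelial cells and pericytes 5 were lower, with sums from 256 to 368 CPM and from 225 to 265. Of 8 oligodendrocyte genes 4 were lower (sums from 9913 to 13183 CPM and from 9484 to 11563), as were 4 of 7 microglial genes (352 to 414 and 317 to 384); with library totals 1 of the 7 was. For the 9 homeostatic genes of the 10 the sum ran from 3399 to 3823 CPM in Htt+/+ and from 3019 to 3541 in HttQ111/+ mice. Of 5 genes of oligodendrocyte precursors 1 was lower, of 7 pan-neuronal genes 2 were higher (*Stmn2* and *Nefl*, a count that held in 7 of 11 alternatives and in 24 of 35 fits without 1 mouse, and ranged from 1 to 3), of 6 genes of ependyma, choroid plexus and the subventricular zone 2 were higher (*Sox11* and *Dcx*), and of 3 blood genes none was called. No marker of these lists was at 0 in all mice. One Htt+/+ control ASO mouse had 1457 CPM of *Ttr*, a choroid plexus gene, against at most 110.9 in any other mouse, and leaving it out changed none of the 6 calls by genotype over all mice. The part of these cell types in the values of the 10 genes was not tested.

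**Figure D4:**
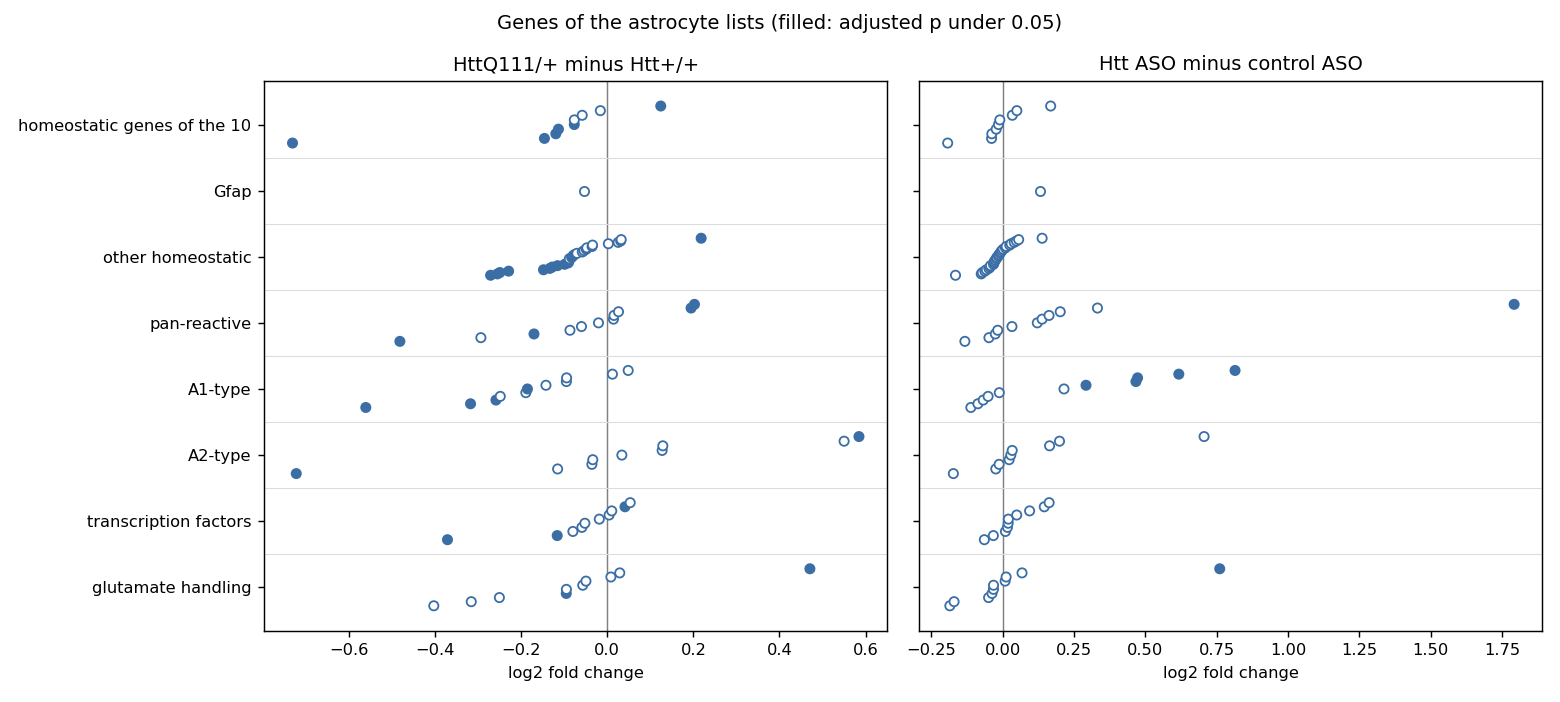
Log2 fold change (horizontal axis) of each tested gene, by list, for HttQ111/+ against Htt+/+ mice (left) and Htt ASO against control ASO (right); filled points have an adjusted p under 0.05. By genotype 14 of 28 further homeostatic genes are filled below 0, and under Htt ASO the filled points are 5 A1-type genes, 1 pan-reactive gene and 1 gene of glutamate handling, all above 0.

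None of the 10 genes was called between treatments. Htt ASO against control ASO, averaged over genotype, called 0.935% of all tested genes (0.828% higher on Htt ASO), and 1 of the 10 genes had an unadjusted p under 0.05, as did 1140 of the 17639 tested genes. It was *Sox9*, at 19.5 ± 2.66 CPM on control ASO and 21.97 ± 2.34 on Htt ASO (log2 fold change 0.17, adjusted p = 0.626). For *Slc1a3* the difference was −0.014 (95% confidence interval −0.057 to 0.029), for *Glul* −0.022 (−0.079 to 0.034) and for *Gfap* 0.13 (−0.059 to 0.32). For *Slc1a2* the interval was wide, from −0.85 to 0.46. Against saline, Htt ASO called 1.47% of all tested genes, and *Aldoc* (−0.086, adjusted p = 0.279), *Aldh1l1* (−0.089, adjusted p = 0.492) and *Glul* (−0.055, adjusted p = 0.527) had an unadjusted p under 0.05, as did 1652 tested genes. Control ASO against saline called 0% of all tested genes, where 1357 had an unadjusted p under 0.05. Among these 1357 was *Gfap*, at −0.21 (adjusted p = 0.607), and no other of the 10. These 3 comparisons share their groups in pairs. The tools edgeR and DESeq2 also called none of the 10 genes in any of them.

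The effect of genotype was compared between Htt ASO and control ASO mice with the interaction term. It called 0% of all tested genes. Unadjusted, p was under 0.05 in 713 genes, and none of the 10 was among these. Its value was 0.35 for *Gfap* (standard error 0.19, 95% confidence interval −0.034 to 0.73, adjusted p = 0.999) and 0.25 for *Sox9* (standard error 0.14, adjusted p = 0.999). In both genes the genotype difference lay below 0 on saline and control ASO and above 0 on Htt ASO, where it was 0.15 for *Gfap* and 0.12 for *Sox9*, and neither was called in any treatment. For *Slc1a3* the interaction was 0.013 (−0.073 to 0.099) and for *Glul* −0.011 (−0.12 to 0.10).

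In the other astrocyte lists, most calls between treatments fell among the A1-type genes. Over all tested genes, Htt ASO against control ASO called 0.828% higher, and Htt ASO against saline called 1.47% in either direction. Between Htt ASO and control ASO none of the 28 further homeostatic genes and none of the 10 transcription factors was called. Of 11 A1-type genes, 5 were higher on Htt ASO: *H2-D1*, a class I MHC gene, rose from 35.1 ± 2.33 to 54.0 ± 6.41 CPM (log2 fold change 0.62, adjusted p = 2.67e-08; SD, n = 11 and 12), and *Iigp1* (0.81, adjusted p = 0.0159), *Psmb8* (0.47, adjusted p = 0.00614), *Gbp2* (0.47, adjusted p = 0.0147) and *Srgn* (0.29, adjusted p = 0.00628) rose with it. These 5 include an interferon-induced GTPase (*Iigp1*), an immunoproteasome subunit (*Psmb8*) and a granule proteoglycan of blood cells (*Srgn*), which other cells of the tissue express as well. *Lcn2* of the pan-reactive list rose from 0.433 to 1.05 CPM (adjusted p = 0.0204), and the glutamine transporter gene *Slc38a5* rose from 2.15 to 3.43 CPM (0.76, adjusted p = 0.00341). *Vim* was 39.7 ± 6.24 CPM on control ASO and 45.4 ± 3.29 on Htt ASO and was not called (0.20, adjusted p = 0.207), *Serpina3n* differed by −0.026 (adjusted p = 0.989) and *Cd44* by 0.12 (adjusted p = 0.963). No gene of the lists for oligodendrocytes and their precursors, microglia, vessels, neurons, medium spiny neurons, ependyma or blood was called between these treatments. Between Htt ASO and saline, 6 of the 11 A1-type genes, 2 of the 11 pan-reactive genes and 1 gene of glutamate handling were called higher, and so were 2 of the 6 genes of endothelial cells and pericytes and 1 of the 6 of ependyma, choroid plexus and the subventricular zone. The part of these cells in the list counts was not tested.

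The 10 genes did not vary as 1 block between mice. After the group means were removed, 10 of their 45 pairs had a Pearson r of 0.5 or more over the 35 mice, and 15 had an r below 0. The closest were *Aldh1l1* with *Aldoc* (0.73), *S100b* with *Aldoc* (0.72) and *Aldh1l1* with *S100b* (0.71). *Gfap* varied with these homeostatic genes, at 0.65 with *S100b* and 0.62 with *Aldh1l1*, and not apart from them. *Aqp4* varied with *Gja1* (0.65) and not with *Aldoc* (−0.14). *Slc1a3* had no partner above 0.35, and *Slc1a2* and *Sox9* varied in opposite directions (−0.60). All points share their libraries and lanes, so these are descriptions without a test.

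**Figure D5:**
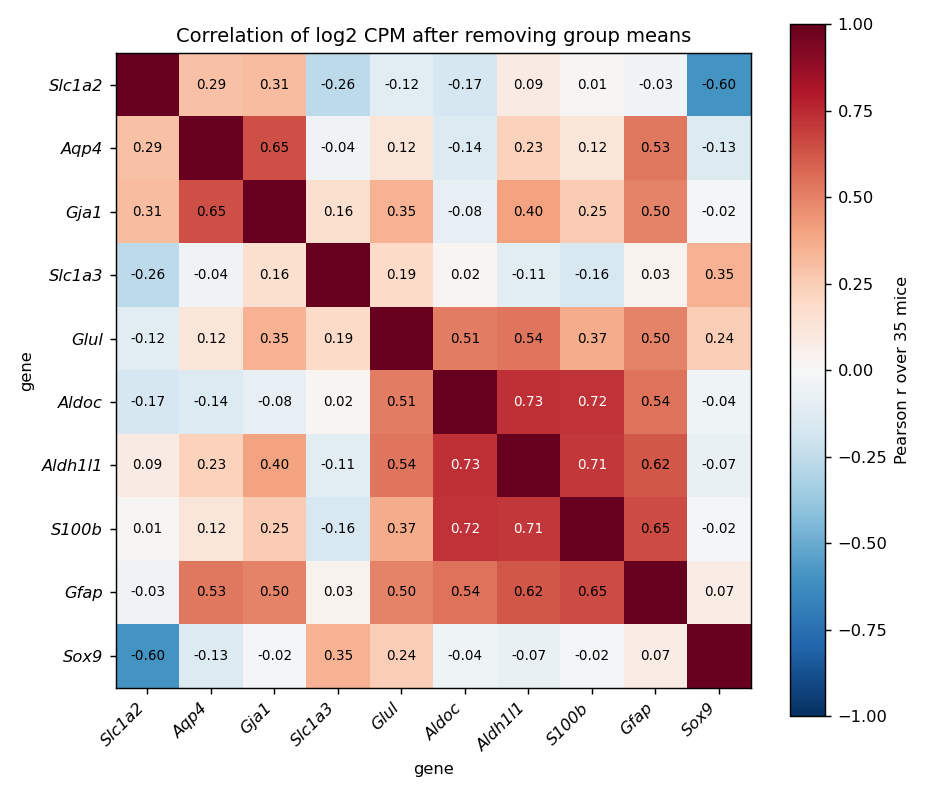
Pearson r of log2 CPM between each pair of the 10 genes over 35 mice, group means removed (colour scale from −1 to 1, value printed in each cell). *Aldoc*, *Aldh1l1*, *S100b* and *Gfap* form the group of highest values, *Aqp4* and *Gja1* pair at 0.65, and *Slc1a2* with *Sox9* is lowest at −0.60.

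Over all tested genes, the rows most like the 10 genes by the same measure were often astrocyte genes. *Aldh1l1* was closest to *Acsbg1* (0.84), a gene of the further homeostatic list, *Glul* to *Htra1* (0.87) of the same list, and *Aldoc* to *Smpd1* (0.86), *Mt3* (0.85) and *Acsbg1* (0.85). *Gfap* was closest to a row without a gene symbol (0.93) and then to *Mlc1* (0.81), a membrane protein of astrocyte endfeet, and *Slc6a9* (0.79), a glycine transporter. *S100b* was closest to *Ndufb7* (0.86), *Bin1* (0.84) and *Cyp27a1* (0.84), and *Sox9* to *Gse1* (0.80) and *Pcdh1* (0.78). *Gja1* was closest to *Mboat2* (0.74) and *Npc1* (0.72), and *Aqp4* to *Msi2* (0.71) among rows with a symbol.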

How the data were processed

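RNAseq of 35 hemistriata, 1 per mouse, was used; 1 Htt+/+ Htt ASO sample was the left one. The authors used stranded mRNA kits, mapped read pairs with Bowtie 0.12.9 and ran RSEM 1.1.18 (mm9, per the submitters' processing notes). What was deposited is a table of expected counts, in which RSEM divides a read among the genes it fits, without scaling. The label ASO1 was taken as Htt ASO.

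In R 4.3.3, genes were filtered with filterByExpr (minimum count 10, total 15) and scaled by TMM (edgeR 4.0.16), and limma 3.58.1 was applied after voom with 6 group means (29 residual degrees of freedom). The Benjamini-Hochberg adjustment ran over 17639 genes, with a threshold of 0.05. Log2 CPM used a prior count of 2. All 85 pairs of mice within groups differed beyond sampling noise. The steps were tested on simulated data.

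The 10 genes, the lists and the rule for named genes (all 10; up to 3 rises and 3 falls per list at a mean of at least 1 CPM; *Vim*, *Serpina3n*, *Cd44*; the 3 rows most like each) were chosen with earlier results of these data known. *Ggta1*, *Steap4*, *Gbp2*, *Srgn* under treatment, *Lcn2*, the nbea rows and *Ttr* were added after their values were seen. Of the lists, 5 genes were too low to test and 3 had no row under their symbol. Gene positions and lengths (83.8% of tested genes) came from GENCODE M21 on GRCm38. The alternatives were edgeR, DESeq2 1.42.0, library totals, 2 other filters, lane as a covariate, no lane 7, no left hemistriatum, sample weights, an additive model, only the groups compared, each mouse left out and, chosen after seeing the data, the long-transcript level as a covariate.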

Additional observations from a re-analysis of the deposited data

Results flagged for a closer look

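Among the 60 combinations of gene and group, 3 held a mouse far from the others of its group, by its gap to the nearest mouse as a share of the group's range. Chance alone gives about 1 such mouse in 20 groups. *Slc1a3* was 603 CPM in 1 Htt+/+ mouse on saline, above the next at 564 (share 0.747). *Aldh1l1* was 47.7 CPM in 1 HttQ111/+ mouse on Htt ASO, below the next at 53.8 (share 0.695). *S100b* was 39.0 CPM in 1 HttQ111/+ mouse on saline, below the next at 43.8 (share 0.714). Leaving out any of these 3 mice changed none of the 6 calls by genotype over all treatments.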

How the results depend on the processing

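Over 11 alternatives and 35 fits that each left out 1 mouse, *Slc1a3* and *Glul* were called between genotypes every time. *S100b* and *Aldoc* were called in 10 of the 11, *Slc1a2* in 9 and *Aqp4* in 7. The 11 include the fit with the long-transcript level, which was defined after rows that follow *Slc1a2* were seen to be long. The number of the 10 genes called by genotype lay between 3, without the lane 7 mice, and 6, and with single mice left out between 5 and 6. The genes called changed too. With lane as a covariate *Aldh1l1* was called (−0.092, adjusted p = 0.00281) and *Aqp4* was not (adjusted p = 0.0638). With the long-transcript level *Sox9* was called (−0.13, adjusted p = 0.0459), and *Aqp4* and *Slc1a2* were not. On saline, where 1 was called, the number was 2 with DESeq2 and with only the groups compared, and 0 with library totals, without a filter, with lane as a covariate and without the lane 7 mice; with single mice left out it lay between 0 and 1. *Gja1* changed sign by genotype with library totals (0.023) and with the long-transcript level (0.0048). Between Htt ASO and control ASO it changed sign without the left hemistriatum (0.0054), with the long-transcript level (0.0035) and with single mice left out (−0.025 to 0.015), and *Slc1a2* did so with the long-transcript level (0.13). The cause was not tested. No treatment comparison or interaction called any of the 10 genes under any alternative. The additive model gives no value within a treatment or for the interaction, and the genotype comparison over all mice already uses every group. No paired analysis was possible because the replicate numbers only follow accession order and pair no mice. Differences of a few percent were at the limit for most genes, and for *Slc1a2* the spread between mice left intervals of over 1 log2 unit.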
